A study of Mus musculus with 17 samples.

Results

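The testes of newborn heterozygous and wild-type mice were compared gene by gene, in 5 of the 17 RNA-seq libraries of the study. The libraries were assigned by the sample labels alone, as 3 testis libraries labelled heterozygous for osteocalcin (Ocn+/-) and 2 labelled WT. All pups were male and 1 day old (P1). The mutant allele is Ocn_GK, made by homologous recombination and kept on the 129/SvEv background. WT pups were born to WT mothers, whereas Ocn+/- pups were born to Ocn-/- mothers. The genotype of the mother thus changes together with that of the pup, and the effect of one cannot be told apart from that of the other. Ocn+/- pups of WT mothers were not analysed here. The other 12 libraries are 3 testes of Ocn-/- pups, also born to Ocn-/- mothers, and 9 forebrains, as the methods call a tissue that the labels name hippocampus. Litters are not given in the sources used here, so that p-values measure the spread between these libraries and nothing more.

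Osteocalcin is a hormone secreted by osteoblasts, the bone-forming cells, and in males it is known to favor testosterone synthesis by Leydig cells of the testis. At birth the mouse testis holds cords of Sertoli cells that enclose resting germ cells (prospermatogonia), and around the cords an interstitium with fetal Leydig cells, peritubular myoid cells, fibroblasts, macrophages and blood vessels. A whole testis was sequenced in each library, so every value below is an average over these cells. Genes and functions other than the steroidogenic, glycolytic, clock and proliferation genes on which the study centers are described.

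Total counts ran from 7302401 to 8289015 per testis library, and 16361 genes were tested. With edgeR, at a Benjamini-Hochberg adjusted p under 0.05, 1350 genes were called, or 8.25% of those tested. Of these, 637 (3.89%) were higher and 713 (4.36%) were lower in Ocn+/- testes. Levels are given as CPM, counts per 1000000 with TMM normalization, and differences as log2 fold changes of Ocn+/- over WT with their standard error (SE). The libraries of the 2 groups did not overlap for 46.7% of all genes tested. The Ocn+/- libraries were higher in 23.4% and lower in 23.3%. A lack of overlap is thus frequent with 3 libraries against 2. All 1350 called genes were without overlap, so that its mention for a called gene adds nothing to the call. In Ocn-/- against the same WT testes 5.64% of genes were called (2.54% higher, 3.09% lower), and in Ocn+/- against WT forebrains 3.89% (1.21% higher, 2.68% lower).

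The base composition of the transcripts moved with these calls. GC content of the longest transcript had a median of 54.8% among the genes called higher, of 44.9% among those called lower and of 49.2% over all genes tested. Among the 508 genes with over 60% GC, 13.2% were called higher and 1.18% lower. Among the 1019 genes with at most 40% GC, 0.294% were called higher and 8.34% lower. The median log2 fold change rose over the 6 GC classes from -0.29 to 0.41. The libraries themselves differed in this respect. In the class above 60% GC the median deviation from the gene's mean was -0.20 and -0.11 on the log2 scale in the WT testes, and 0.22, 0.09 and 0.25 in the Ocn+/- testes. Ocn-/- testis 2 deviated by -0.26, in the direction of WT, and the other Ocn-/- testes by 0.00 and 0.03. A fit with an offset for the GC curve of each library, chosen after the data were seen, called 847 genes (5.19%), 356 (2.18%) higher and 491 (3.01%) lower. Of the 1348 genes called without the offset that could be tested with it, 654 were called with it in the same direction and none had the opposite sign. The part of GC content in the calls beyond these values was not tested, and the outcome with this offset is given below wherever it ended a call of a named gene. Among the 113 named genes that were called, 81 were also called with the offset, 31 were not and 1 had no GC value. Length did not separate the classes in the same way, with median transcripts of 4347 bases for genes called higher, 4465 for genes called lower and 4130 for all genes tested.

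**Figure D1:**
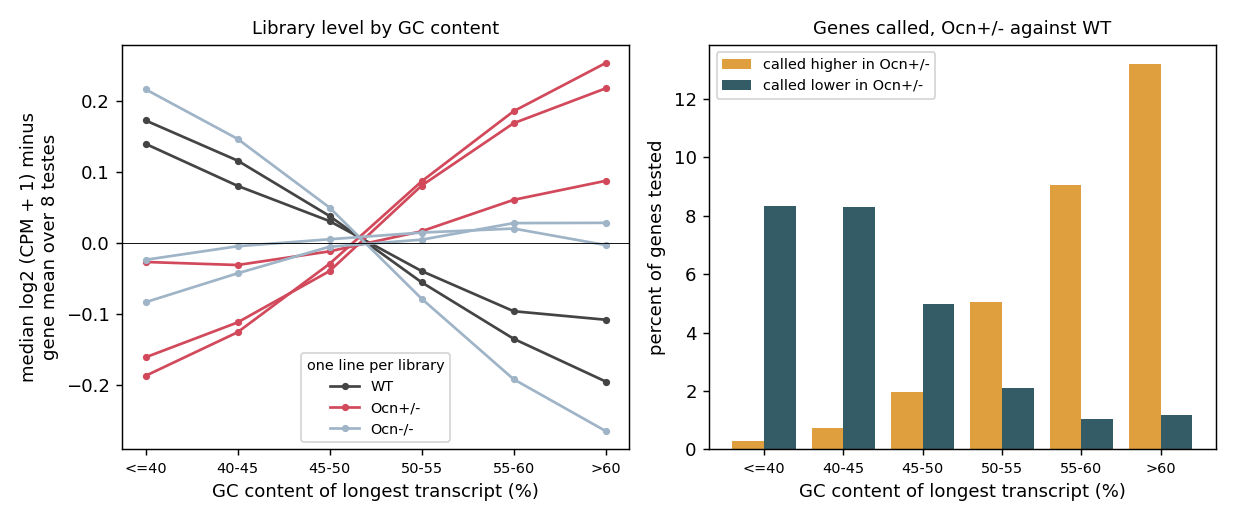
Left, median over genes of log2(CPM + 1) minus the gene's mean over the 8 testes, by GC content of the longest transcript in percent, with 1 line per library. Right, percent of the genes of each GC class that were called higher or lower in Ocn+/- than in WT testes. The WT lines fall and the Ocn+/- lines rise with GC content, 1 Ocn-/- line runs beside those of WT, and calls higher in Ocn+/- reach 13.2% above 60% GC.

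Markers of the cells of a newborn testis were present in each of the 5 libraries. Sertoli cell genes summed to between 3689 and 4614 CPM, prospermatogonial genes to between 679 and 776 CPM, and Leydig cell genes other than steroid enzymes to between 1775 and 2094 CPM. The ranges of both genotypes overlapped for these 3 lists. Amh, the Sertoli cell hormone that removes the female ducts, was at 464 and 423 CPM in WT and at 484, 362 and 469 CPM in Ocn+/- testes. Ddx4, an RNA helicase of germ cells, was at 81.5 and 65.0 CPM in WT and at 69.1, 72.8 and 72.6 CPM in Ocn+/- testes. Nr5a1, the orphan receptor that drives Leydig and Sertoli cell genes, was at 213 and 182 CPM in WT and at 221, 196 and 223 CPM in Ocn+/- testes. None of these 3 genes passed the test (adjusted p = 0.97, 0.91 and 0.67). Bglap and Bglap2, the osteocalcin genes of bone, held at most 2 counts in any of the 5 libraries, so that the targeted genes could not be used to check the labels. Gprc6a, the osteocalcin receptor of Leydig cells, and Gpr158 held at most 3 counts in each library, whereas Gpr37 was at 464 and 436 counts in WT and at 673, 535 and 554 counts in Ocn+/- testes and did not pass the test.

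Chaperones of the endoplasmic reticulum were lower in Ocn+/- testes. Proteins to be secreted or placed in membranes fold in this compartment. When unfolded proteins pile up there, the sensors Ire1 (Ern1), Atf6 and Perk raise the transcription of chaperone genes, a program known as the unfolded protein response. Many of its targets carry the element ERSE in their promoter, which NF-Y and Atf6 or Xbp1 bind together. Of 19 tested genes of this list 6 were called, all lower, against 4.36% of all genes tested. A value below 0 was seen for 18 of the 19, and the median was -0.43, against 0.01 over all genes tested. Hspa5, which encodes BiP, the main Hsp70 chaperone of this compartment, was at 782 and 731 CPM in the WT testes and at 468, 421 and 487 CPM in the Ocn+/- testes. This was a log2 fold change of -0.72 (SE 0.15, adjusted p = 0.011). Hsp90b1, its Hsp90 chaperone, was at 1702 and 1732 CPM in WT and at 1009, 865 and 1118 CPM in Ocn+/- testes, a change of -0.78 (SE 0.17, adjusted p = 0.016). All Ocn+/- libraries were thus below both WT libraries for these 2 genes. Calr, which holds newly made glycoproteins together with the isomerase Pdia3, was at 700 and 679 CPM in WT and at 481, 431 and 501 CPM in Ocn+/- testes (log2 fold change -0.55, SE 0.13, adjusted p = 0.017). Pdia3 itself fell by 0.52 (SE 0.12, adjusted p = 0.018), Canx by 0.51 (adjusted p = 0.021) and Pdia4 by 0.53 (adjusted p = 0.048).

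Of the transducers of the response, Ern1 and Xbp1 did not pass the test. Atf4, listed here with the amino acid response, was called lower (-0.63, adjusted p = 0.021, below). Ern1 had a value of 0.45 (adjusted p = 0.15) and was at 32.5 and 31.3 CPM in WT against 48.6, 50.7 and 31.5 CPM in Ocn+/- testes. Xbp1, the factor whose mRNA Ern1 splices, was at 78.5 and 88.3 CPM in WT and at 62.3, 63.2 and 59.4 CPM in Ocn+/- testes without passing the test (-0.44, adjusted p = 0.092). Together the 19 genes made up 5864 and 5994 CPM in the WT testes and between 3748 and 4251 CPM in the Ocn+/- testes. Their median GC content was 47.0%. With the offset for GC content 5 genes were called lower, namely Hspa5 (-0.56), Hsp90b1 (-0.59), Pdia3 (-0.41), Calr (-0.55) and Manf (-0.75), and the median was -0.35. Hspa5 was called in 3 of the 5 fits that left out 1 library and Hsp90b1 in 2. In Ocn-/- testes, which are compared with the same 2 WT libraries, Hspa5 was at 483, 599 and 387 CPM and Hsp90b1 at 889, 1165 and 712 CPM.

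The promoters of 3 of these chaperones are shown because the genes were lower together and share a known element. The windows are those of RefSeq on GRCm38.p6, from 250 bases before to 50 after the annotated start, read 5′ to 3′ on the strand of the gene, and capitals mark ERSE, spelled CCAAT and, 9 bases of any kind later, CCACG, and searched on both strands. Hspa5 is shown from chr2:34771840-34772139, plus strand, Hsp90b1 from chr10:86705395-86705694, minus strand, and Calr from chr8:84846882-84847181, minus strand.
Hspa5: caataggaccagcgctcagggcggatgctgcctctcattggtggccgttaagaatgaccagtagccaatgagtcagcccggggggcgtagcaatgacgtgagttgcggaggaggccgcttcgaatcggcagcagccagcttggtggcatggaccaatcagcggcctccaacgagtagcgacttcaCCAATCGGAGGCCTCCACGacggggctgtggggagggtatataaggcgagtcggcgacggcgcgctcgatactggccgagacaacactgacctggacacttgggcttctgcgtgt
Hsp90b1: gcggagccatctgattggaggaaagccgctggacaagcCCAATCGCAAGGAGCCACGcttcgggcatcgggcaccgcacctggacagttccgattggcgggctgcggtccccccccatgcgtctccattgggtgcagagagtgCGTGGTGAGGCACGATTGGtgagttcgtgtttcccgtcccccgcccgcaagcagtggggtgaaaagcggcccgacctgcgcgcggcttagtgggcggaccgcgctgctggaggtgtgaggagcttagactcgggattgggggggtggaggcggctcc
Calr: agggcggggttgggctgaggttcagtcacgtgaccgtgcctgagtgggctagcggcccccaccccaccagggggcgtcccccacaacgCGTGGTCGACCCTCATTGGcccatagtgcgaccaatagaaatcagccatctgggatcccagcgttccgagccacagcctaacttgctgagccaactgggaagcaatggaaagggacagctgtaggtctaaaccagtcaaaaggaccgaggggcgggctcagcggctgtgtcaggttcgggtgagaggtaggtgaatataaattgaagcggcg

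Hsp90b1 holds 2 exact matches and the other 2 promoters 1 each. Of all 27025 promoters of the table, counted once per gene symbol with its first window, 35 hold the motif (0.13%). Of the 16 tested members of the list with a window 7 hold it (43.8%). Among the 6 called members it is present in Calr, Canx, Hsp90b1 and Hspa5, while the windows of Pdia3 and Pdia4 hold no match with these letters. A match describes the letters of the promoter, and binding was not measured.

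**Figure D2:**
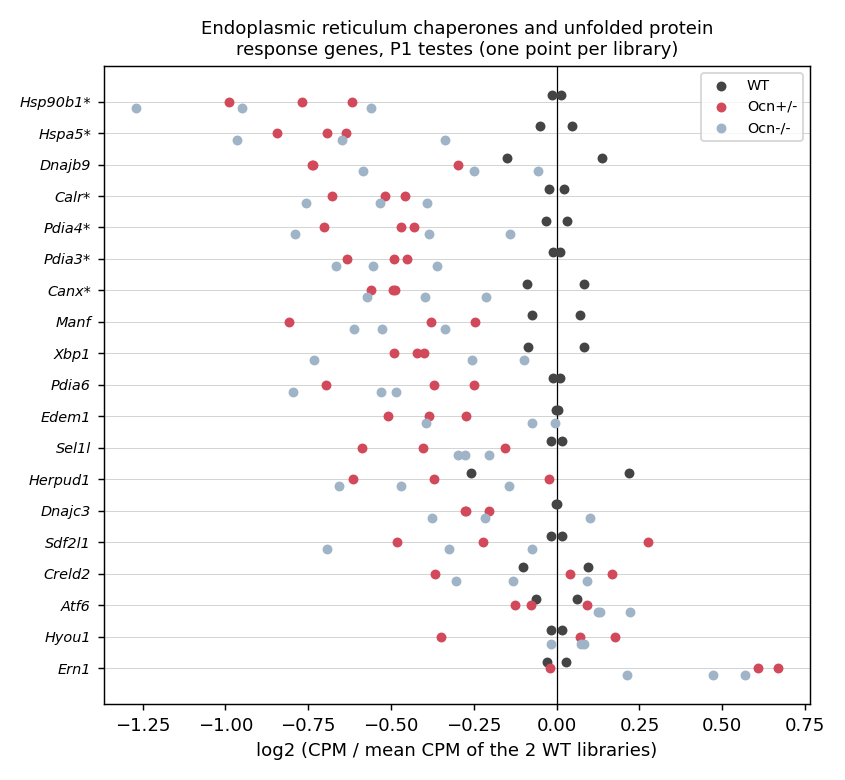
Log2 ratio of CPM to the mean CPM of the 2 WT testes for the 19 tested genes of the unfolded protein response, with 1 point per library and an asterisk at genes called in Ocn+/- against WT. The Ocn+/- points of Hspa5, Hsp90b1, Calr, Canx, Pdia3 and Pdia4 lie to the left of both WT points, whereas those of Ern1 overlap with WT or lie to the right of it.

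Genes that hormones and other stimuli induce within hours moved in both directions. Luteinizing hormone acts on Leydig cells through cAMP and protein kinase A, which phosphorylates CREB and so raises genes such as Crem, Sik1 and Gem. Glucocorticoids act through their receptor on genes such as Klf9, Sgk1 and the metallothioneins. Of 16 tested genes of the cAMP list 4 were lower and 2 higher, beside 4.36% and 3.89% of all genes. This list also holds coactivators of CREB, and both higher genes are of that kind. Crem, whose short product ICER represses the same genes in turn, was at 27.3 and 20.3 CPM in WT and at 7.31, 8.83 and 8.66 CPM in Ocn+/- testes. It fell by 1.52 on the log2 scale (SE 0.22, adjusted p = 0.0012). Sik1, a kinase that keeps the CREB coactivators out of the nucleus, was at 139 and 205 CPM in WT and at 64.8, 86.6 and 106 CPM in Ocn+/- testes (log2 fold change -1.003, SE 0.21, adjusted p = 0.019). Both genes were below WT in each Ocn+/- library. Gem, a small GTPase, fell by 0.88 (SE 0.20, adjusted p = 0.014) and the phosphodiesterase Pde4b by 0.84 (adjusted p = 0.025). The coactivators Crtc1 and Crtc2 rose by 0.73 (SE 0.17, adjusted p = 0.017) and 0.65 (adjusted p = 0.030). With the GC offset Crem (-1.32), Sik1 (-1.11) and Gem (-0.78) were still called, while Pde4b, Crtc1 and Crtc2 were not (adjusted p = 0.058, 0.055 and 0.089).

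Among 31 tested immediate-early genes 4, with Sik1 again among them, were lower and 1 higher, beside 4.36% and 3.89% of all genes. Junb, a subunit of AP-1, was at 12.6 and 19.9 CPM in WT and at 7.04, 4.29 and 6.33 CPM in Ocn+/- testes, a log2 fold change of -1.47 (SE 0.29, adjusted p = 0.0086). Btg2, an antiproliferative cofactor, was at 65.0 and 62.1 CPM in WT and at 37.7, 30.3 and 40.7 CPM in Ocn+/- testes (-0.81, SE 0.17, adjusted p = 0.0091). Klf6 fell by 0.56 (adjusted p = 0.036) and Egr4 rose by 1.46 (SE 0.38, adjusted p = 0.035), both without passing the test under the GC offset (adjusted p = 0.15 and 0.055). The best known members of the list did not pass it, with a value of -0.18 for Egr1, 0.53 for Fos and -0.27 for Jun. Fos, Fosb and Egr1 depended on Ocn+/- testis 3. Fosb was at 7.51 and 9.21 CPM in WT, at 1.06 and 0.757 CPM in Ocn+/- testes 1 and 2 and at 76.6 CPM in Ocn+/- testis 3. Without that library Fosb was at -3.18 (adjusted p = 0.019), Fos at -2.25 (adjusted p = 0.0020) and Egr1 at -0.83 (adjusted p = 0.0067), all 3 called lower.

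Of 19 glucocorticoid-induced genes 3 were lower and 2 higher, beside 4.36% and 3.89% of all genes. The same 5 were called with the GC offset, which called 3.01% of all genes lower and 2.18% higher. Klf9, a Krüppel-like factor, was at 66.6 and 93.0 CPM in WT and at 24.6, 36.1 and 37.7 CPM in Ocn+/- testes, with a log2 fold change of -1.28 (SE 0.22, adjusted p = 0.0063). Sgk1, a kinase of ion transport, was at 41.1 and 64.9 CPM in WT and at 17.7, 27.8 and 28.6 CPM in Ocn+/- testes (-1.10, SE 0.22, adjusted p = 0.0084). Errfi1, a feedback inhibitor of the EGF receptor, fell by 0.72 (adjusted p = 0.018). The metallothioneins, small zinc-binding proteins, went the other way. Mt1 was at 6.61 and 10.3 CPM in WT and at 22.98, 20.2 and 27.4 CPM in Ocn+/- testes, an increase of 1.47 (SE 0.35, adjusted p = 0.026). Mt2 was at 5.83 and 11.1 CPM in WT and at 29.1, 18.04 and 25.3 CPM in Ocn+/- testes, an increase of 1.51 (SE 0.28, adjusted p = 0.0063). For both, each Ocn+/- library was above both WT libraries. Both calls depended on single libraries. Without Ocn+/- testis 1 Mt1 was at 1.488 (adjusted p = 0.085) and without Ocn+/- testis 3 at 1.345 (adjusted p = 0.078), while Mt2 kept its call in both fits. Without WT testis 1 Mt1 was at 1.19 (adjusted p = 0.21) and Mt2 at 1.12 (adjusted p = 0.11), and without WT testis 2 Mt1 was at 1.84 (adjusted p = 0.11) and Mt2 at 2.06 (adjusted p = 0.0076). Other targets of the receptor did not pass the test, among them Fkbp5 (0.20, adjusted p = 0.44) and Tsc22d3 (-0.39, adjusted p = 0.19). Testes were collected in the same hour of the evening according to the study's methods, and hormone levels of these pups were not analysed here.

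Mt1 and Mt2 lie next to each other on chromosome 8. Their RefSeq windows on GRCm38.p6 are shown because both are known targets of the zinc sensor Mtf1, which binds the metal response element. Capitals mark its core, spelled TGCACNC or TGCGCNC and searched on both strands, with overlaps between the spellings allowed. Mt1 is shown from chr8:94178839-94179138, plus strand and Mt2 from chr8:94172368-94172667, plus strand.
Mt1: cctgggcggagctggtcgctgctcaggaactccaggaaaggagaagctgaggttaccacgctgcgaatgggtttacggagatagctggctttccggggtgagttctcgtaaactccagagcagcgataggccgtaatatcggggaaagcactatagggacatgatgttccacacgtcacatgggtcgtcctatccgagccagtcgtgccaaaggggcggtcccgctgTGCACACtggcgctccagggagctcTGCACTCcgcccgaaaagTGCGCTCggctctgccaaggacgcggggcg
Mt2: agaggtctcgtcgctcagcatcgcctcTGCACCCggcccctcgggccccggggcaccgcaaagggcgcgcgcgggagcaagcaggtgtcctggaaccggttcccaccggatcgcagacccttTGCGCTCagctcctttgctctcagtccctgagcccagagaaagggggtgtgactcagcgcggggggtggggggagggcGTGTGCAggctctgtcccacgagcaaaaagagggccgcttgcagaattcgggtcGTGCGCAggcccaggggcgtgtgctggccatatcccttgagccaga

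Mt1 holds 3 matches and Mt2 holds 4. At least 1 match is present in 25.6% of all promoters and at least 3 in 2.0%, or 540 of 27025.

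**Figure D3:**
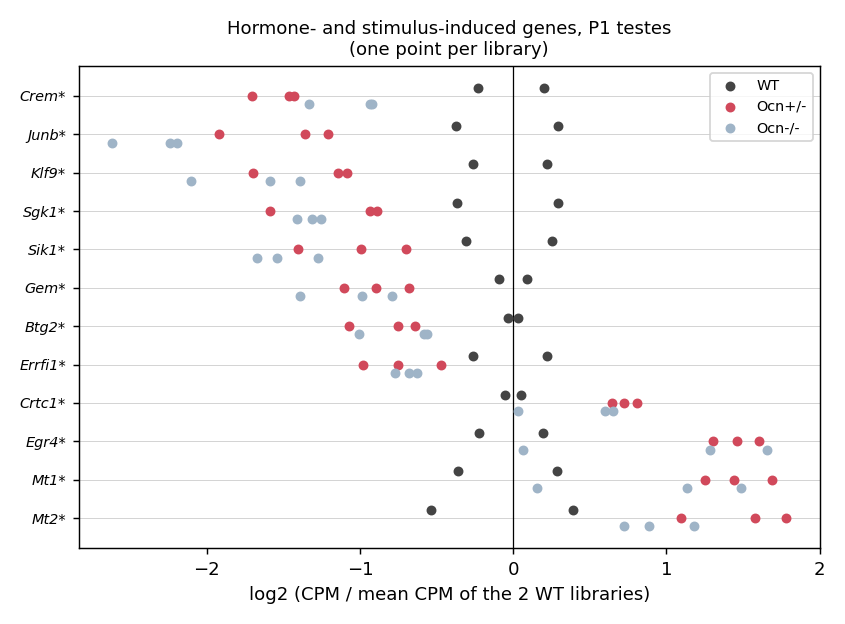
Log2 ratio of CPM to the mean CPM of the 2 WT testes for 12 called genes of the cAMP, immediate-early and glucocorticoid lists, with 1 point per library. In Ocn+/- testes Crem, Junb, Klf9, Sgk1, Sik1, Gem, Btg2 and Errfi1 lie below WT, and Mt1, Mt2, Egr4 and Crtc1 above it, without overlap between the 3 Ocn+/- and the 2 WT libraries.

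Genes of blood vessels were lower in Ocn+/- testes. Vessels of the fetal testis carry its hormones to the body and guide the shaping of the cords. Of 18 tested endothelial markers 6 were called, all lower, against 4.36% of all genes, and 12 of the 18 were lower without overlap between the groups, against 23.3% of all genes tested. The median was -0.39. Ptprb, a phosphatase of endothelial junctions, was at 49.4 and 53.9 CPM in WT and at 27.4, 22.8 and 23.4 CPM in Ocn+/- testes. It fell by 1.07 (SE 0.17, adjusted p = 0.0018). Pecam1, an adhesion molecule between endothelial cells, was at 107 and 115 CPM in WT and at 47.2, 66.5 and 61.1 CPM in Ocn+/- testes (-0.93, SE 0.15, adjusted p = 0.0025). Kdr, the main receptor for VEGF, was at 119 and 125 CPM in WT and at 66.2, 79.1 and 79.2 CPM in Ocn+/- testes (-0.71, SE 0.14, adjusted p = 0.0086). Eng, a coreceptor for TGF-beta, fell by 0.52 (SE 0.12, adjusted p = 0.017), Vwf by 0.68 (adjusted p = 0.021) and Emcn by 0.92 (adjusted p = 0.023). Not every marker was lower. Cdh5, the cadherin that defines endothelium, had a value of -0.32 and Tie1 of 0.03 (-0.25 with the GC offset), whereas Sox18 was at 20.1 and 22.1 CPM in WT and at 37.9, 37.9 and 41.3 CPM in Ocn+/- testes (0.89, adjusted p = 0.056). Fewer endothelial cells and less RNA per cell cannot be told apart in whole testes.

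The vessel markers had a median GC content of 52.8%, above that of all genes, and with the GC offset their median was -0.54 with 6 called lower (Pecam1, Cdh5, Kdr, Eng, Ptprb and Vwf). Ptprb was called in each of the 5 fits without 1 library and Pecam1 in 4. In Ocn-/- testes the median of the list was -0.82 against the same WT libraries. Pericytes wrap the capillaries. Of their 6 tested markers only Rgs5, a regulator of G protein signaling, was called, beside 8.25% of all genes. It was at 124 and 140 CPM in WT and at 80.0, 75.1 and 78.4 CPM in Ocn+/- testes (-0.76, SE 0.13, adjusted p = 0.0031). Of 37 genes of extracellular matrix 3 were called lower, all parts of or neighbors to basement membrane, namely Lama4 (-0.50, adjusted p = 0.019), Lama2 (-0.43, adjusted p = 0.039) and Col15a1 (-0.45, adjusted p = 0.036). This share of 3 in 37 stands beside 4.36% of all genes called lower. With the GC offset 6 of the 37 were called lower, beside 3.01% of all genes, and the median moved from -0.07 to -0.23. Lama2 was not among those 6 (adjusted p = 0.060), and neither Lama2 nor Col15a1 was called in any of the 5 fits without 1 library.

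**Figure D4:**
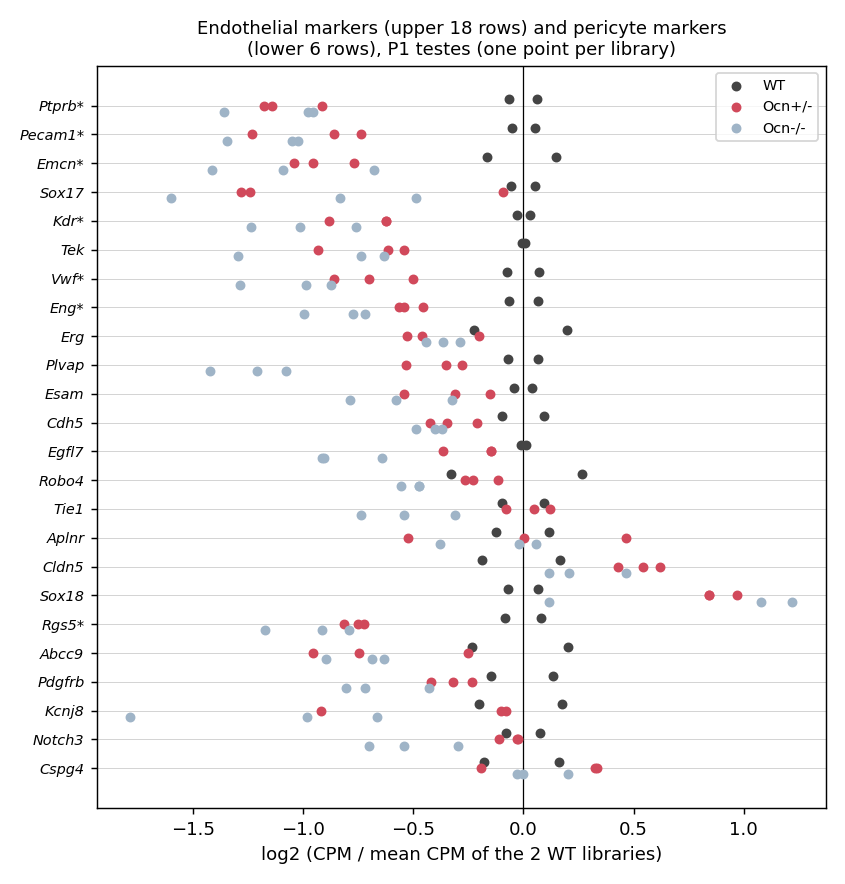
Log2 ratio of CPM to the mean CPM of the 2 WT testes for 18 endothelial markers and, in the lower 6 rows, 6 pericyte markers, with 1 point per library and an asterisk at genes called in Ocn+/- against WT. Ptprb, Pecam1, Emcn, Kdr, Vwf, Eng and Rgs5 carry the asterisk and lie to the left of WT in each Ocn+/- library, whereas Sox18 and Cldn5 lie to its right.

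Chemokines guide homing cells in the fetal gonad. Of 17 tested chemokines and receptors 2 were called, both lower, beside 4.36% of all genes. Cxcr4, the receptor that guides germ cells and vessels, was at 27.6 and 30.03 CPM in WT and at 10.8, 11.4 and 7.56 CPM in Ocn+/- testes, a log2 fold change of -1.54 (SE 0.22, adjusted p = 0.00095). Its ligand Cxcl12 was at 583 and 591 CPM in WT and at 340, 501 and 418 CPM in Ocn+/- testes (-0.48, SE 0.14, adjusted p = 0.044). Both were called with the GC offset (-1.42 and -0.54).

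Sertoli cell markers as a list were near WT, with a median of 0.12, 3 of 25 called higher and 1 lower, beside 3.89% and 4.36% of all genes. Those that rose include the factors at the root of the lineage. Sox9, which commits cells of the early gonad to the Sertoli fate, was at 49.4 and 50.8 CPM in WT and at 113, 82.8 and 88.8 CPM in Ocn+/- testes. The log2 fold change was 0.92 (SE 0.15, adjusted p = 0.0031) and was the same with the GC offset. Sox8, its close relative, was at 38.9 and 41.1 CPM in WT and at 106, 76.0 and 63.7 CPM in Ocn+/- testes (1.03, SE 0.18, adjusted p = 0.0053). Defb36 rose by 1.03 (adjusted p = 0.043), but not past the threshold with the GC offset (0.86, adjusted p = 0.088). Kitl, the ligand for the Kit receptor of germ cells, was at 470 and 374 CPM in WT and at 299, 257 and 227 CPM in Ocn+/- testes and fell by 0.69 (SE 0.14, adjusted p = 0.010). Kitl is poor in GC (38.6%), and with the GC offset its change was -0.40 (adjusted p = 0.091). Under that offset Amh (-0.49) and Inhbb (-0.74) passed the test as lower, whereas without it their values were -0.02 and -0.38 (adjusted p = 0.97 and 0.092).

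Of 25 tested prospermatogonial genes 2 were called, a share near the 8.25% of all genes, and the list had a median of 0.06. Tdrd9, a helicase that silences transposons with piRNAs, was at 52.3 and 45.7 CPM in WT and at 19.7, 27.6 and 21.6 CPM in Ocn+/- testes (-1.09, SE 0.17, adjusted p = 0.0021). Lin28a, a regulator of let-7 that marks undifferentiated germ cells, was at 12.3 and 10.1 CPM in WT and at 22.6, 20.2 and 22.7 CPM in Ocn+/- testes (0.96, SE 0.22, adjusted p = 0.018). Both kept their call with the GC offset (-1.14 and 0.93). Retinoic acid, which tells germ cells when to enter meiosis, is made and taken up by testis cells, and 2 of 19 genes of its pathway were called, beside 8.25% of all genes. Aldh1a1, an enzyme of its synthesis, was at 1433 and 1334 CPM in WT and at 780, 684 and 689 CPM in Ocn+/- testes (-0.95, SE 0.13, adjusted p = 0.00061). Stra6, which takes retinol into cells, was at 29.9 and 32.2 CPM in WT and at 65.8, 50.9 and 64.4 CPM in Ocn+/- testes (0.96, SE 0.18, adjusted p = 0.0071). Each Ocn+/- library was on the same side of WT for these 2 genes, and both were called with the GC offset (-0.72 and 0.79).

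In the interstitium, 1 of 10 Leydig cell genes outside steroid synthesis was called, a share near the 8.25% of all genes, and the list had a median of -0.23. With the GC offset all 10 had a value below 0, the median was -0.44 and 2 were called lower, Insl3 and Nrp2, beside 3.01% of all genes. Prlr, the prolactin receptor, was at 138 and 149 CPM in WT and at 76.6, 89.97 and 96.0 CPM in Ocn+/- testes (-0.71, SE 0.13, adjusted p = 0.0054), and was not called with the GC offset (-0.45, adjusted p = 0.059). Insl3, the Leydig cell hormone of testis descent, was at 119 and 120 CPM in WT and at 91.7, 93.8 and 108 CPM in Ocn+/- testes, a value of -0.28 that did not pass the test (adjusted p = 0.42), although it did with the GC offset (-0.69, adjusted p = 0.0088). Of 14 stromal genes 11 had a value below 0, and 3 were called lower, beside 4.36% of all genes. Ogn, a small proteoglycan, was at 481 and 566 CPM in WT and at 192, 309 and 268 CPM in Ocn+/- testes (-1.03, SE 0.22, adjusted p = 0.020). Igf1 fell by 0.53 (adjusted p = 0.041) and Pdgfra by 0.41 (adjusted p = 0.047), and of these 3 only Ogn was called with the GC offset (-0.69), which called 3.01% of all genes lower. Hao2, a peroxisomal oxidase of hydroxy acids, had one of the largest decreases outside the lists. It was at 56.0 and 47.9 CPM in WT and at 22.6, 14.8 and 14.4 CPM in Ocn+/- testes (-1.59, SE 0.22, adjusted p = 0.00072).

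Among enzymes of fatty acid elongation and desaturation, Elovl5, Elovl6 and Scd2 were lower. Of 12 tested genes of fatty acid synthesis 3 fell and 1 rose, beside 4.36% and 3.89% of all genes. Elovl5, which lengthens polyunsaturated fatty acids, was at 278 and 251 CPM in WT and at 174, 161 and 179 CPM in Ocn+/- testes (-0.63, SE 0.12, adjusted p = 0.0069). Scd2, a desaturase, was at 2055 and 1887 CPM in WT and at 1421, 1285 and 1349 CPM in Ocn+/- testes (-0.54, SE 0.12, adjusted p = 0.012). Elovl6 fell by 0.55 (adjusted p = 0.016). All 3 were called with the GC offset (-0.58, -0.56 and -0.38). Srebf1, the factor that drives these enzymes, rose by 0.67 (SE 0.15, adjusted p = 0.013), but not past the threshold with the offset (0.37, adjusted p = 0.079). The 25 genes of cholesterol synthesis had a median of -0.02, or 0.07 with the offset. Of 7 tested adipocyte markers only Lpl, the lipase that frees fatty acids from lipoproteins, was called, beside 8.25% of all genes. It was at 97.8 and 123 CPM in WT and at 37.3, 69.8 and 44.6 CPM in Ocn+/- testes (-1.13, SE 0.26, adjusted p = 0.035).

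Imprinted genes, which are read from only the maternal or the paternal allele and of which many act on fetal growth, had a value below 0 for 20 of 26 members (median -0.27), and 3 were called lower, beside 4.36% of all genes. Peg10, a gene of paternal expression derived from a retrotransposon, was at 342 and 307 CPM in WT and at 151, 123 and 131 CPM in Ocn+/- testes. It fell by 1.26 (SE 0.14, adjusted p = 9.5e-05), or by 1.18 with the GC offset, and was called in all 5 fits that left out 1 library. Rian, a long noncoding RNA of maternal expression, fell by 0.74 (SE 0.14, adjusted p = 0.0054), and Mest by 0.47 (adjusted p = 0.049). Neither passed the test with the GC offset (-0.40 and -0.31), and the transcript of Rian has 35.8% GC. Rian was the only called member of 13 nuclear long noncoding RNAs, beside 8.25% of all genes. Zdbf2, an imprinted gene outside the list, was at 127 and 88.7 CPM in WT and at 38.8, 33.2 and 33.3 CPM in Ocn+/- testes. The change was -1.62 on the log2 scale (SE 0.15, adjusted p = 1.2e-05), and -1.41 with the GC offset. In Ocn-/- testes Zdbf2 was at 42.8, 43.2 and 41.6 CPM and Peg10 at 153, 216 and 188 CPM. The parent from which each allele came cannot be read from these counts.

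Genes of blood cells were few and uneven. Cx3cr1, the fractalkine receptor of macrophages, was at 6.997 and 6.69 CPM in WT and at 16.7, 23.7 and 19.4 CPM in Ocn+/- testes (1.54, SE 0.30, adjusted p = 0.0079). Cd68, a lysosomal protein of macrophages, was at 3.37 and 3.79 CPM in WT and at 6.64, 9.97 and 10.3 CPM in Ocn+/- testes (1.32, SE 0.33, adjusted p = 0.023). The other 15 of 17 macrophage markers did not pass the test, while 3.89% of all genes were called higher, and the list had a median of -0.02 and a summed level of 231 to 242 CPM in WT and of 233 to 292 CPM in Ocn+/- testes. The mast cell tryptases Tpsab1 (1.07, SE 0.19, adjusted p = 0.0052) and Tpsb2 (0.80, adjusted p = 0.036) rose among 7 markers, beside the same 3.89%, Tpsab1 also with the GC offset (0.87), Tpsb2 not (0.56, adjusted p = 0.15). Of 9 neutrophil genes 2 were called lower, beside 4.36% of all genes. S100a8, a calcium-binding protein of neutrophils, was at 20.2 and 12.1 CPM in WT and at 1.46, 3.53 and 2.75 CPM in Ocn+/- testes (-2.63, SE 0.44, adjusted p = 0.0039), and Chil3 was at 2.46 and 1.64 CPM in WT and at 0, 0 and 0.138 CPM in Ocn+/- testes. Its partner S100a9 was at 20.7 and 13.6 CPM in WT and at 1.73, 3.53 and 7.98 CPM in Ocn+/- testes without passing the test (adjusted p = 0.077). Erythroid genes, which mark the blood left in the tissue, summed to 2579 and 6801 CPM in WT and to 862 to 3919 CPM in Ocn+/- testes, with a median of -0.99 and no member called among 9 (1 at an unadjusted p under 0.05, and 0 called by DESeq2). The part of blood content in the S100a8 and Chil3 values was not tested.

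Among signaling pathways, TGF-beta, activin and BMP genes had a value below 0 for 21 of 29 members, and 2 were called lower, beside 4.36% of all genes. Skil, a repressor of Smad factors, was at 200 and 208 CPM in WT and at 104, 133 and 113 CPM in Ocn+/- testes (-0.81, SE 0.14, adjusted p = 0.0031), and Id2, a target of BMPs, fell by 0.79 (SE 0.18, adjusted p = 0.017). Both were called with the GC offset (-0.62 and -0.71). The Notch pathway had 2 of 19 tested genes called, both higher, beside 3.89% of all genes. A value below 0 was seen for 8 of the 19, and the median was 0.17, or -0.07 with the GC offset. Notch1 rose by 0.48 (adjusted p = 0.041) but not with the offset (0.21, adjusted p = 0.37). Rbpj, the DNA-binding partner of Notch, rose in both fits, but cannot be read apart from its pseudogene (below). Of 16 tested p53 targets Phlda3 rose (1.14, SE 0.25, adjusted p = 0.012), while Trp53inp1 (-0.93, adjusted p = 0.014) and Plk2 (-0.54, adjusted p = 0.036) fell. Over all genes 3.89% rose and 4.36% fell. Trp53inp1 was not called with the GC offset (-0.65, adjusted p = 0.055). The amino acid response of Atf4 had 2 of 26 tested genes called, both lower, beside 4.36% of all genes. Atf4, the factor of this response, was at 160 and 223 CPM in WT and at 126, 108 and 136 CPM in Ocn+/- testes (-0.63, SE 0.15, adjusted p = 0.021, and -0.89 with the GC offset). Its target Asns fell by 0.47 (adjusted p = 0.041) without a call under the GC offset (adjusted p = 0.16) or in any of the 5 fits without 1 library, and the other 24 of the 26 members were not called. Of 21 heat-shock genes 3 were lower, beside 4.36% of all genes, namely Hspa1b (-0.80, SE 0.19, adjusted p = 0.020), Hsp90aa1 (-0.47, adjusted p = 0.031) and Hspd1 (-0.38, adjusted p = 0.048). Hsp90aa1 was not called with the GC offset (-0.37, adjusted p = 0.060), and Hspd1 was not called in any fit without 1 library. Rbm3, induced by cold, rose by 0.48 (adjusted p = 0.040) and by 0.68 with the GC offset. The histone H1f2 was at 35.1 and 44.2 CPM in WT and at 11.96, 13.9 and 19.5 CPM in Ocn+/- testes (-1.39, SE 0.22, adjusted p = 0.0023), and was 1 of 5 replication-dependent histone genes of 56 listed that could be tested. Ctsl, a lysosomal protease, was at 1285 and 1185 CPM in WT and at 805, 688 and 783 CPM in Ocn+/- testes (-0.70, SE 0.13, adjusted p = 0.0054).

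Of 78 ribosomal proteins of the cytosol 16 were called lower and 3 higher, beside 4.36% and 3.89% of all genes. A value below 0 was seen for 56 of the 78, and the median was -0.18. Rps3a1 (-0.71, SE 0.13, adjusted p = 0.0043), Rpl10 (-0.66, SE 0.13, adjusted p = 0.0075) and Rps10 (-0.61, SE 0.12, adjusted p = 0.0082) fell, and Rplp1 rose (0.75, SE 0.16, adjusted p = 0.011). With the GC offset 12 were lower and 1 higher. These genes share reads with many processed pseudogenes, between which RSEM divides them, so single members are uncertain. Ribosome biogenesis had 3 genes higher and 1 lower of 24, beside 3.89% and 4.36% of all genes, with Utp20 at 0.57 (SE 0.12, adjusted p = 0.013), Nolc1 at 0.53 (adjusted p = 0.031), Bop1 at 0.60 (adjusted p = 0.043) and Npm1 at -0.47 (adjusted p = 0.036). Bop1 and Npm1 were not called with the GC offset (adjusted p = 0.35 and 0.18). Of 74 nuclear genes of oxidative phosphorylation 4 rose, led by the ATP synthase subunit Atp5mc1 (0.79, SE 0.17, adjusted p = 0.011), and 2 fell, with a median of 0.06. The 6 calls among 74 are a share near the 8.25% of all genes. The 12S ribosomal RNA of mitochondria, mt-Rnr1, was at 633 and 741 CPM in WT and at 250, 237 and 214 CPM in Ocn+/- testes (-1.56, SE 0.17, adjusted p = 0.00012). Among the 13 mitochondrial mRNAs only mt-Nd2 was called (-0.58, adjusted p = 0.034), beside 8.25% of all genes. The list, with a median GC content of 37.1%, had a median of 0.00. With the GC offset mt-Nd2 was not called (-0.23, adjusted p = 0.38) and the other 12 had values above 0, with a median of 0.31 over the list and mt-Nd5 called higher (0.50, adjusted p = 0.045). Libraries were made from poly-T captured RNA, and how much of a ribosomal RNA this step retains was not tested. Other groups had 1 to 3 calls, beside 8.25% of all genes, and the 3 calls among 35 splicing factors are near that share. Actn2 (1.46) was called among 8 skeletal muscle genes, though in no fit without 1 library, and Gsr (0.50) among 15 NRF2 targets. Pax2 (1.60) was called among 10 genes of the Wolffian duct, at 1.17 and 1.89 CPM in WT and 3.99 to 5.36 CPM in Ocn+/- testes. Among 35 splicing factors Srsf4 (0.54) rose and Hnrnpc (-0.54) and Luc7l2 (-0.48) fell, and among 22 lysosomal genes Lamp2 fell by 0.43. With the GC offset Pax2, Hnrnpc, Luc7l2 and Lamp2 were not called (adjusted p = 0.12, 0.19, 0.17 and 0.36).

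In 12 of the 49 lists no member was called. They hold 156 tested genes, of which 30 had an unadjusted p under 0.05, 5 were called by DESeq2 and 3 with the GC offset. Over all 16361 genes tested, 4235 had an unadjusted p under 0.05 and 1696 were called by DESeq2. The GC offset called 847 of 16313. They cover the interferon response (32 tested, 25 with a value below 0, median -0.20), the Wnt (25, median -0.05) and hedgehog (12, median 0.11) pathways, insulin and IGF signaling (16, median -0.08), fatty acid oxidation (18, median -0.02), peritubular myoid cells (16, median -0.07), coelomic epithelium, peripheral nerve, lymphocytes, erythroid cells, adrenal cortex and osteocalcin receptors. A missing call does not show that a gene was the same in both genotypes.

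The largest increases outside the study's own lists were of low to moderate expression. Prrt2, a presynaptic protein, was at 4.02 and 7.44 CPM in WT and at 16.5, 30.3 and 22.6 CPM in Ocn+/- testes, an increase of 2.01 on the log2 scale (SE 0.36, adjusted p = 0.0069). Sec16b, a protein of the sites where vesicles leave the endoplasmic reticulum, was at 1.55 and 3.28 CPM in WT and at 12.2, 8.96 and 7.56 CPM in Ocn+/- testes (1.98, SE 0.43, adjusted p = 0.013). Troap, a protein of the mitotic spindle, was at 5.83 and 6.94 CPM in WT and at 19.8, 14.5 and 18.01 CPM in Ocn+/- testes (1.45, SE 0.24, adjusted p = 0.0031). All 3 were called with the GC offset. Hmcn2 (1.78), Gfod2 (1.52), Lrch4 (1.54) and the pseudogene Ndufa12-ps (1.39) were too, whereas Rbmxl2 (1.65), Dusp9 (1.51) and Tmc8 (1.39) were not. Among the largest decreases, Fbxo40, a ubiquitin ligase subunit, was at 11.9 and 10.9 CPM in WT and at 2.66, 4.16 and 3.99 CPM in Ocn+/- testes (-1.65, SE 0.33, adjusted p = 0.0078), and Cfap92 (-1.45), Zfp791 (-1.43), Fndc3c1 (-1.54) and Rpl17-ps8 (-2.31) were called as well. Fbxo40, Cfap92 and Rpl17-ps8 kept the call with the GC offset, and Zfp791 and Fndc3c1 did not (adjusted p = 0.061 and 0.094). Rpl17-ps8 and Zfp791 were called in none of the 5 fits without 1 library and Cfap92 in 1.

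Since the WT group has 2 libraries, the calls rest on few values. Without WT testis 1 131 genes were called and without WT testis 2 118. Without Ocn+/- testis 1, 2 or 3 the numbers were 352, 2019 and 459. Of the 113 named genes that were called, 11 were called in all 5 of these fits and 8 in none. A set of 61 genes, 56 lower and 5 higher, was called in each of these 5 fits, and all 61 were also called with the GC offset. The study's own gene lists hold 29 of them, and the others were picked out here after their values were seen. Rasgef1b, an exchange factor for Ras-type GTPases, was at 161 and 166 CPM in WT and at 59.4, 68.5 and 65.7 CPM in Ocn+/- testes (-1.34, SE 0.14, adjusted p = 2.7e-05). Soat1, which stores cholesterol as esters, was at 282 and 244 CPM in WT and at 98.0, 120 and 112 CPM in Ocn+/- testes (-1.25, SE 0.13, adjusted p = 2.7e-05). Pdk1, the kinase that shuts pyruvate out of the mitochondrial cycle, was at 154 and 180 CPM in WT and at 78.0, 72.8 and 82.9 CPM in Ocn+/- testes (-1.10, SE 0.12, adjusted p = 4.5e-05). In each of these genes the highest Ocn+/- library was well below the lower WT library. Tiparp, a mono-ADP-ribosyltransferase, fell by 1.26 (SE 0.15, adjusted p = 0.00012), and Lepr, the leptin receptor, by 1.38 (SE 0.21, adjusted p = 0.0014). Prkar2b, a regulatory subunit of protein kinase A, fell by 1.07 (SE 0.15, adjusted p = 0.00071), Nampt, which makes NAD, by 1.07 (SE 0.15, adjusted p = 0.00072), and Cd93, an endothelial receptor, by 0.92 (SE 0.14, adjusted p = 0.0011). Coq10b (-1.23), Cst8 (-1.15), Jmy (-1.10), Gpcpd1 (-1.06), Eif4a2 (-0.997), Dynlt3 (-0.99), Zfp948 (-0.98), Tob1 (-0.96), Prss35 (-0.91) and Rnf13 (-0.86) belong to the same set. Its higher members outside those lists are Hmga1b (1.204), the lncRNA Gm47547 (1.13), the pseudogene Tmem181b-ps (0.96) and Gm3194.

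The osteocalcin genes lie at chr3:88275923-88317739 of GRCm39, together with Pmf1 and read from the minus strand. Bglap3, a relative of osteocalcin outside bone, was at 6 and 2 counts in WT and at 5, 17 and 14 counts in Ocn+/- testes and did not pass the test (adjusted p = 0.17). Pmf1, a kinetochore protein encoded next to Bglap, was at 31.1 and 33.7 CPM in WT and at 45.03, 44.5 and 55.4 CPM in Ocn+/- testes (0.58, SE 0.15, adjusted p = 0.033). Smg5, a factor of nonsense-mediated decay and the nearest tested gene at lower coordinates, was at 51.8 and 54.9 CPM in WT and at 103, 80.5 and 88.3 CPM in Ocn+/- testes (0.76, SE 0.14, adjusted p = 0.0054). Slc25a44, the nearest at higher coordinates, was at 39.3 and 37.1 CPM in WT and at 42.9, 40 and 39.6 CPM in Ocn+/- testes (0.10, adjusted p = 0.73). Pmf1 and Smg5 were called with the GC offset too (0.76 and 0.51). Within 5 Mb on either side 138 genes were tested and 11 were called (7.97%), 6 higher and 5 lower, near the 8.25% of all genes.

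The assignment of reads between a gene and its copy differed at Rbpj. Rbpj, on chromosome 5, was at 97.0 and 93.9 CPM in WT and at 145, 161 and 163 CPM in Ocn+/- testes (0.71, SE 0.12, adjusted p = 0.0032). Rbpj-ps3, a processed pseudogene of it at chr6:46506288-46507728, was at 35.5 and 28.1 CPM in WT and at 3.06, 2.15 and 2.48 CPM in Ocn+/- testes (-3.63, SE 0.27, adjusted p = 9.9e-07). Of the reads of both together, 26.8% and 23.1% were assigned to the pseudogene in WT testes, against 2.07%, 1.32% and 1.49% in Ocn+/- testes. The sum of both was 133 and 122 CPM in WT and 148, 163 and 166 CPM in Ocn+/- testes. The share at the pseudogene was 2.30%, 2.52% and 1.85% in Ocn-/- testes. It was 15.1%, 16.5% and 15.04% in WT forebrains and 2.07%, 0.909% and 2.11% in Ocn+/- forebrains, which are other libraries of the same genotypes. Since a read that fits both copies is divided by RSEM, the 2 genes cannot be read apart, and a difference in expression was not told apart here from one in sequence.

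**Figure D5:**
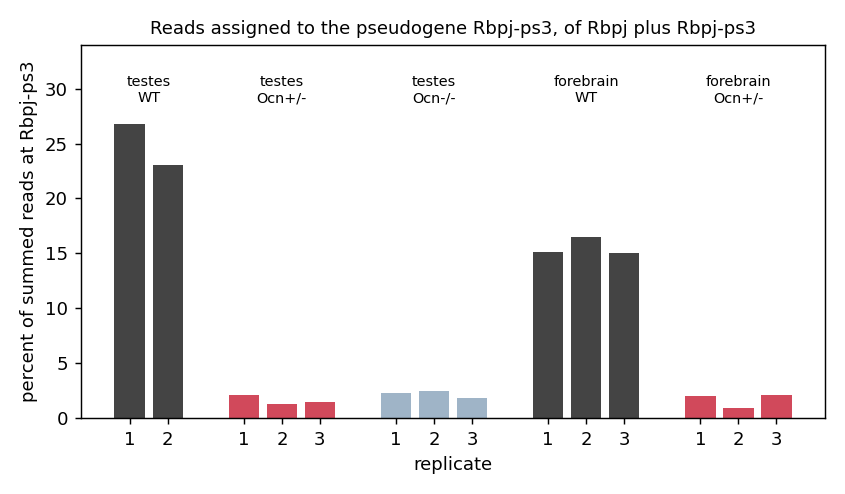
Percent of the reads of Rbpj and Rbpj-ps3 together that were assigned to the pseudogene Rbpj-ps3, with 1 bar per library. WT bars stand at 15.04% to 26.8% in both tissues and those of Ocn+/- and Ocn-/- libraries at or below 2.52%.

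Other differences of this kind were seen at duplicated or overlapping genes, which are uncertain for the same reason. At most 3 counts in each WT and at least 30 in each Ocn+/- testis were found for 5 genes. Gm3194 was at 0 and 0 counts in WT and at 36, 31 and 36 counts in Ocn+/- testes (adjusted p = 0.00037). Gm49450, Gm45837, Gm43118 and Gm12481 showed the pattern without passing the test (adjusted p = 0.12, 0.099, 0.15 and 0.18), and each was at 0 counts in Ocn-/- testis 2. The opposite pattern was found for 2 genes. Gm49359 was at 82 and 68 counts in WT and at 0 in each Ocn+/- testis (adjusted p = 0.11), and ENSMUSG00000072693.3, which was not found in the annotation used, at 55 and 110 counts in WT and at 0 in each Ocn+/- testis (adjusted p = 0.031). In the forebrains Gm3194 was at 0, 0 and 36 counts in WT and at 0, 116 and 148 counts in Ocn+/- libraries, so that its pattern in testes was not found there. Ptp4a1, a phosphatase, carries 2 identifiers on the same strand of chromosome 1, and the shorter (chr1:30988665-30988772) lies within the longer (chr1:30979383-30989390). The shorter, ENSMUSG00000117310, was at 575 and 487 CPM in WT and at 158, 174 and 200 CPM in Ocn+/- testes (-1.58, SE 0.13, adjusted p = 3.8e-06), and the longer, ENSMUSG00000026064, was at 10.1 and 11.9 CPM in WT and at 1.99, 3.41 and 5.64 CPM in Ocn+/- testes (-1.58, SE 0.41, adjusted p = 0.030). Both were lower in each Ocn+/- library than in WT. With the GC offset the shorter, at 80.6% GC, moved to -2.40 (adjusted p = 0.0027), and the longer was not called (adjusted p = 0.063).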

How the data were processed

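The members and gene lists were chosen with earlier results of these data known, so that list counts are descriptions. Libraries were grouped by their labels. According to the study's methods, RNA with RIN of 8 to 10 was captured with poly-T, and libraries were made with NEBNext Ultra. The authors trimmed reads with Trim Galore 0.6.6, aligned them to GRCm39 with STAR 2.7.8a and deposited RSEM 1.3.3 expected counts per gene, not normalized, in 1 table of 55359 genes, each library in its own column. The kit is not known to mark strand, so overlapping and antisense genes cannot be told apart. Names and positions came from GENCODE vM39, in which 54749 identifiers were found.

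Expected counts were rounded and tested with edgeR 4.0.16 in R 4.3.3 (robust quasi-likelihood, TMM, filterByExpr by genotype, two-sided, Benjamini-Hochberg adjustment over 16361 genes). All 8 testes entered 1 fit, so that the WT, Ocn+/- and Ocn-/- libraries share an estimate of the spread. Forebrain was fitted alone, and a fit of both tissues tested whether the effects differ. For the GC offset, a lowess curve (span 0.3) of each library's log2 CPM against GC content of the longest transcript was entered as an offset. The fits were tested on simulated data.

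The text names, among called genes outside the study's own lists averaging 5 CPM or more where higher, with a plain symbol and no overlap, the 15 higher and 15 lower of largest fold. It also names up to 4 called members of each of 49 lists by smallest p, genes with at most 3 counts in 1 group and at least 30 in the other, the osteocalcin locus, and list members by value. Genes outside this rule are said to be so. The study's own lists, the genes named in its text and testis figure, were used only to leave genes out. Replicates differed by more than sampling noise. Alternatives were DESeq2 1.42.0, library size alone, upper quartile normalization, no filter, at least 10 counts in every testis, only the 5 libraries compared, the replicate number as a block, each library left out (a lone WT library is then assumed to vary like the other groups), and, chosen after the data were seen, offsets for GC content and length. A result of 1 list member is not reported here.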

Additional observations from a re-analysis of the deposited data

Results flagged for a closer look

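Of the 41 genes named for their fold change, a near absence in 1 group or their place at the osteocalcin locus that could be tested in a fit of both tissues, 9 differed between testes and forebrain in the effect of Ocn+/- against WT (adjusted p under 0.05 over 17800 genes), beside 2.07% of all genes. The 41 include the genes of largest fold in testes, and the same testis values enter this test again. The share of 2.07% is therefore no measure for them, and the count of 9 is a description. Values are the log2 fold change in testes minus that in forebrain. Effects more negative in testes were those of Cxcr4 (-1.96, adjusted p = 0.0003), Crem (-1.49, adjusted p = 0.01) and the short Ptp4a1 identifier ENSMUSG00000117310 (-1.05, adjusted p = 0.0014). In forebrain alone Cxcr4 had a value of 0.41 and Crem of -0.05. Effects more positive in testes were those of Prrt2 (1.72, adjusted p = 0.025), Mt2 (1.57, adjusted p = 0.013), Ndufa12-ps (1.56, adjusted p = 0.025), Mt1 (1.53, adjusted p = 0.042), Gfod2 (1.38, adjusted p = 0.031) and Smg5 (0.66, adjusted p = 0.04). In forebrain alone Mt1 and Mt2 were at -0.08 each. Without forebrain WT 3, a library that moves many calls of that tissue, Mt1, Ndufa12-ps and Smg5 no longer passed (adjusted p = 0.07, 0.063 and 0.057), and the other 6 did.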

How the results depend on the processing

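Against 1350 called genes (637 higher, 713 lower), no low-count filter gave 2149 (1074 and 1075) and a fit of the 5 libraries alone 2084 (1081 higher). Offsets gave 847 for GC content (356 higher), 871 for GC content and length (366 higher) and 506 for the replicate block with GC content (197 higher, 309 lower). Library size alone gave 1057 higher and 494 lower, so that 68.1% of its calls were higher against 47.2%, and moved the median of all genes to 0.08. Upper quartile normalization gave 1374 and DESeq2 1696. The replicate block alone gave 966. A pairing of the samples by replicate number was not shown. The deviations of same-numbered libraries correlate at 0.0871 and 0.0371. These values cannot decide the question, since with 2 WT libraries the WT deviations mirror each other. Leaving out 1 library gave 118 to 2019 calls, 25 to 1076 of them higher and 86 to 943 lower. In forebrain, 625 genes were called with all libraries and 183 without WT 3. Slc25a44, not called, turned from 0.10 to -0.0499, -0.0625 and -0.037 with the 3 offsets. No other of the 120 genes named by rule changed sign, but Fos, Fosb, Egr1, Jun and the markers Amh, Ddx4, Nr5a1 and Tie1, none of them called, did in some alternatives. Among the named genes 31 lost their call with the GC offset, 27 with the replicate block, 88 without WT 1, 94 without WT 2 and 59, 11 and 50 without Ocn+/- 1, 2 and 3. Having 2 WT libraries, each of which decides many calls, limits these results, as does the genotype of the mother.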
